A study of Mus musculus with 9 samples.

Results

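The 10 genes described here encode enzymes and chaperones that modify and fold procollagen, the precursor of collagen, in the endoplasmic reticulum (ER). They were taken by symbol from the deposited expression tables, and all 10 were found among 40548 genes. They comprise the prolyl 4-hydroxylase subunits P4ha1, P4ha2, P4ha3 and P4hb, the lysyl hydroxylases Plod1, Plod2 and Plod3, the 3-hydroxylation complex genes Crtap and Ppib, and the collagen chaperone gene Serpinh1. RNA-seq was performed on calvarial cells, the bone-forming progenitors of the mouse skull vault, from newborn C57BL/6 pups (2 to 3 days old per the labels). Cells at day 0 were grown to confluency in medium free of ascorbic acid and did not undergo differentiation. Cells at day 4 and day 7 were kept for that time, with fresh medium each day, in mineralization medium, to which β-glycerol phosphate and ascorbic acid had been added. With 3 libraries a stage there were 9 in all. Mineralized cells were released with collagenase I before trypsin and non-mineralized cells with trypsin alone, so the medium, the time in culture and the release of the cells changed together and cannot be told apart. The libraries came from whole cultures, in which fewer cells of a type and less RNA per cell cannot be told apart.

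Collagen chains are hydroxylated on proline and lysine before 3 of them wind into a triple helix. The prolyl 4-hydroxylases carry an α subunit with the active site (P4HA1, P4HA2 or P4HA3) and the protein disulfide isomerase P4HB, which also works alone in disulfide formation, and 4-hydroxyproline keeps the helix stable at body temperature. Lysyl hydroxylases (PLOD1, PLOD2 and PLOD3) prepare sites for sugars and for cross-links: PLOD1 acts on the helix, PLOD2 on the telopeptides at the chain ends, and PLOD3 also transfers sugars. CRTAP forms a complex with the prolyl 3-hydroxylase P3H1 and the proline isomerase PPIB (cyclophilin B), and SERPINH1 (HSP47) binds the folded triple helix. The hydroxylases use iron and 2-oxoglutarate and need ascorbate to keep the iron reduced, and defects in many of these proteins cause brittle bones.

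The promoters of the P4ha genes are shown because the 3 α subunits take part in one reaction and their transcripts did not move together (shown after the sequences). They are the 250 bases before the RefSeq start site on GRCm38.p6, 5′ to 3′ on the gene's strand. Capitals mark ACGTG or GCGTG on either strand, the core letters of hypoxia response elements. P4ha1 lies at chr10:59323046-59323295 on the plus strand, P4ha2 at chr11:54100674-54100923 on the plus strand, P4ha3 at chr7:100285270-100285519 on the plus strand. The GENCODE M21 annotation starts P4ha2 at 54100095, so the P4ha2 window lies inside the gene as given there.
P4ha1: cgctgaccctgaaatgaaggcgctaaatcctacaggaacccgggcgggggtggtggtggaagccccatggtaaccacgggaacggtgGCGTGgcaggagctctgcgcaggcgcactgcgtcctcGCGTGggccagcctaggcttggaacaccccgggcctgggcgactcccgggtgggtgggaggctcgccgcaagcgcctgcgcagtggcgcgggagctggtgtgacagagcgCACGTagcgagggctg
P4ha2: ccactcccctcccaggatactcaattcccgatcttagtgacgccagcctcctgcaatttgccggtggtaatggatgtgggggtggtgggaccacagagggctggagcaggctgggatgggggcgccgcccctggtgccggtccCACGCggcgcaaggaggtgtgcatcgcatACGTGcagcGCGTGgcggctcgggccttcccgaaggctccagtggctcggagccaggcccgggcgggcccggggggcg
P4ha3: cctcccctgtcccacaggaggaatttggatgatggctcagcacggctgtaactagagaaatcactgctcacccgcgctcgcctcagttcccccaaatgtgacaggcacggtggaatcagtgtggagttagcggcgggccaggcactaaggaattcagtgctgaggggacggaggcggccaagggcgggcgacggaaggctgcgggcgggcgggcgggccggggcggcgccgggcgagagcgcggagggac
RefSeq promoters matched 9 of the 10 genes, and Plod2 had no entry. The windows of 8 of these 9 held ACGTG or GCGTG, against 38.6% of 32851 promoters of the same length, and P4ha3 was the one without either. They were found in P4ha1, P4ha2, P4hb, Plod1, Crtap and Ppib, which rose by day 7 in the test below. Plod3 (1 ACGTG and 3 GCGTG) and Serpinh1 (1 ACGTG), which did not pass that test, held them too. A link between these letters and the changes was not tested. ACGTG alone was in 6 of the 9 (16.6% of all promoters) and GCGTG in 7 (28.2%). The members' windows had a GC content from 53.6% to 70.0%, against a median of 52.4% over all promoters. Of the other letters searched on both strands, the GC box GGGCGG was in 7 of the 9 (32.7% of all), the Runx motif TGTGGT in 2 (14.0%), and the ER stress element (CCAAT and CCACG with 9 bases between them) in none (0.113%). These are matches of letters, and no binding was measured.

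Gene coordinates are those of GENCODE M21 on GRCm38, the build of the deposited files. Levels are given as RPKM, reads on a gene scaled to the length of its model and to the reads on all genes of the library, as mean ± SD over the 3 libraries of a stage. Differences between day 7 and day 0 are log2 fold changes of CPM with a standard error (SE), tested with limma over 12712 genes with a Benjamini-Hochberg adjustment and a threshold of 0.05. Day 4 was deposited in tables of its own and entered no test. Its libraries held 32820610 to 37306090 reads, against at most 15622755 at the other stages. For day 4 the separate tables and the depth cannot be told apart from the stage. By this test 7 of the 10 genes rose by day 7 (P4ha1, P4ha2, P4hb, Plod1, Plod2, Crtap and Ppib), against 12.6% of all genes tested. P4ha3 fell, against 18.6% of all genes (31.2% in either direction), and Plod3 and Serpinh1 did not pass. The median log2 fold change of the 10 genes was 0.55 and that of all genes tested was −0.11. With the 6 libraries rescaled by the median of ratios, the median of all genes was −0.01 and the same numbers of members passed, 7 higher and 1 lower. Under that rescaling 2843 of all genes tested rose, against 1602 as deposited.

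Within the stages the 10 genes shared an order of libraries. Replicate 3 of day 0 was the lowest of its stage for 9 of the 10, replicate 1 of day 4 for 9, and replicate 1 of day 7 was the highest for 9. At day 0 and day 7 genes in general went the same way. Their median-of-ratios factors were 1.131, 1.13 and 0.877 in replicates 1, 2 and 3 of day 0, and 1.006, 0.901 and 0.985 at day 7. The typical gene thus had the same lowest library at day 0. It had the same highest library at day 7, by a small margin over replicate 3 (1.006 against 0.985). The share of all genes with this order was not counted, so whether it is particular to the 10 genes was not tested. In replicate 3 of day 0, which had the fewest reads (7741204), the single gene Gm42418 took 11.96% of all reads, against 2.94% and 3.04% in the other day 0 libraries. It took 8.12% in replicate 2 of day 7, and Plekhh2 took 7.95% in replicate 3 of day 7. With these 2 genes left out of the totals the members called were again 7 higher and 1 lower. Over the alternative settings other than leaving out a library, that setting included, 1247 to 3148 of all genes rose and 1950 to 3086 fell.

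**Figure D1:**
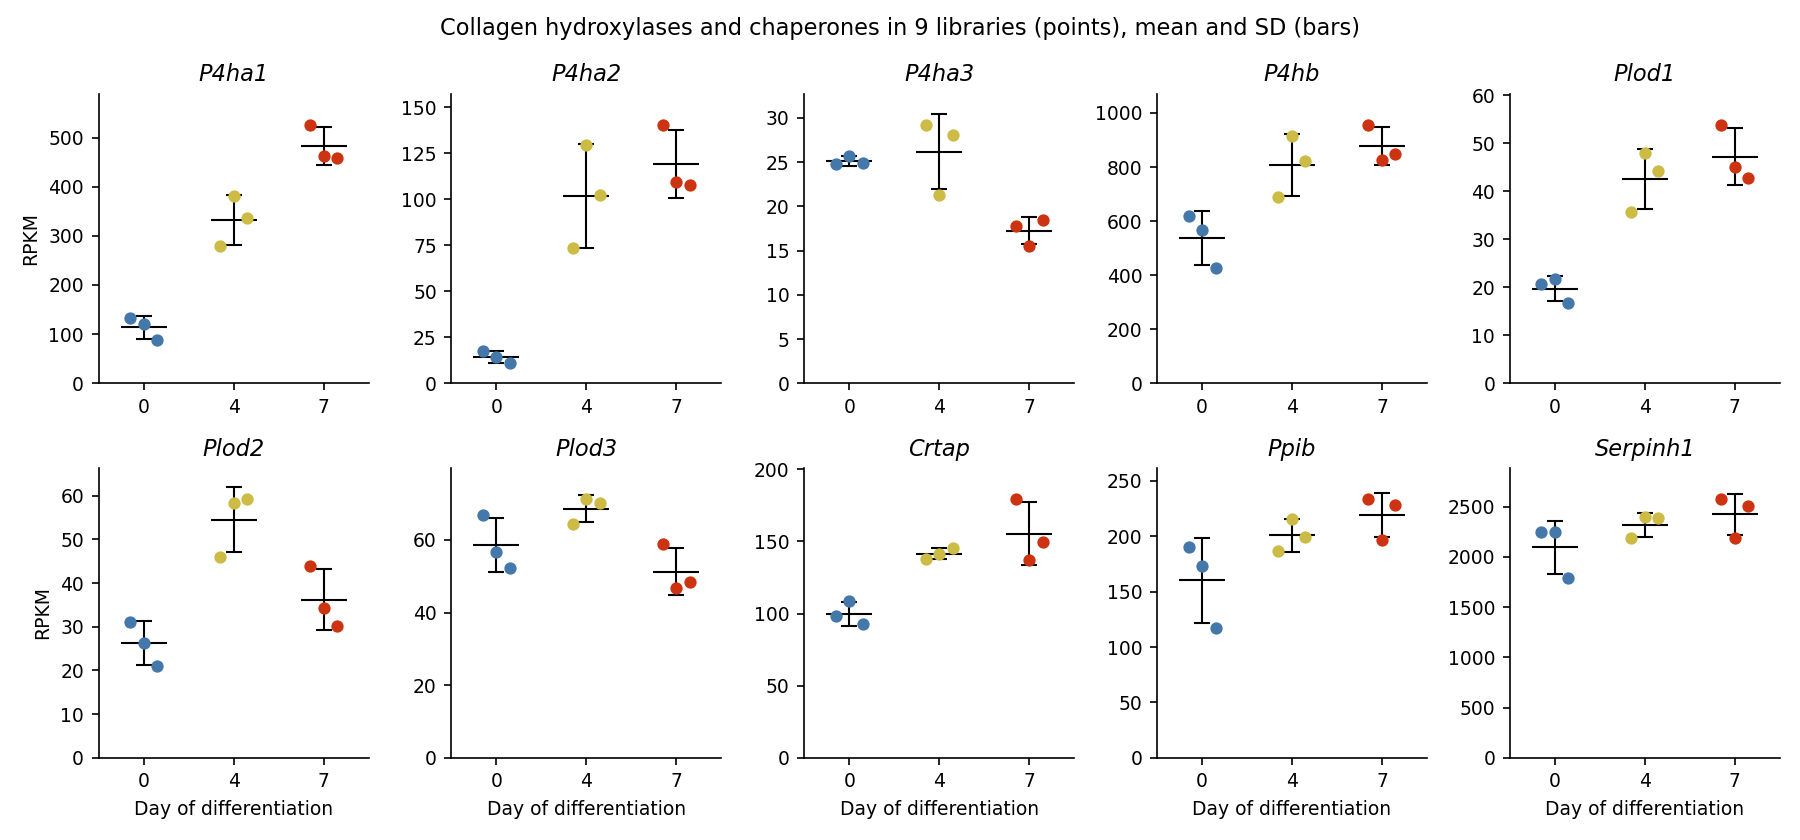
RPKM of the 10 genes (y axis, from 0, a scale for each gene) at day 0, day 4 and day 7 of differentiation (x axis), with a point for each of 3 libraries and bars for the mean and SD. P4ha1 climbed from 114 to 332 to 482, Plod2 was highest at day 4 with 54.5, and P4ha3 was lowest at day 7 with 17.3.

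P4ha1 (ENSMUSG00000019916, chr10:59323296-59373304, plus strand), which encodes the α subunit of the main prolyl 4-hydroxylase of most tissues, rose at each step. Its RPKM was 132, 122 and 87.3 in replicates 1, 2 and 3 at day 0, 280, 380 and 337 at day 4, and 526, 463 and 458 at day 7. No library of one stage overlapped those of another, and P4ha1 was the only one of the 10 genes whose day 7 libraries were all higher than its day 4 libraries. The mean rose 4.25-fold, from 114 ± 23.3 to 482 ± 38.2 RPKM. On the log2 scale the rise was 2.10 (SE 0.17, adjusted p = 1.88e-14).

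P4ha2 (ENSMUSG00000018906, chr11:54100095-54131665, plus strand), the α subunit of another isoenzyme, which is abundant in cartilage and bone, had the largest rise of the 10 genes. Its RPKM at day 0 was 17.8, 14.4 and 11.2, the lowest level of the 10 genes. At day 4 it was 73.5, 130 and 102, and at day 7 it was 141, 110 and 108. Every library at day 4 and day 7 lay above every day 0 library, while day 4 and day 7 overlapped. The mean rose 8.25-fold by day 7, from 14.5 ± 3.32 to 119 ± 18.5 RPKM, with a log2 fold change of 3.05 (SE 0.16, adjusted p = 6.08e-21). Ranked from the largest rise among the genes tested, P4ha2 was number 116 and P4ha1 number 242.

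P4ha3 (ENSMUSG00000051048, chr7:100285520-100319699, plus strand), the α subunit of a minor isoenzyme, was the only one of the 10 genes to fall. Its RPKM was 24.8, 25.7 and 24.9 at day 0, 29.3, 21.3 and 28.0 at day 4, and 17.8, 15.5 and 18.5 at day 7. Day 0 and day 4 overlapped, and all day 7 libraries lay below all others. The mean at day 7 was 0.686 times that at day 0, with a log2 fold change of −0.54 (SE 0.16, adjusted p = 0.00547). Without replicate 2 of day 7 the value was −0.47 and no longer passed (adjusted p = 0.0625).

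P4hb (ENSMUSG00000025130, chr11:120560298-120573253, minus strand), the shared partner of the α subunits, was already abundant before differentiation and rose less than P4ha1 and P4ha2. It had 620, 566 and 426 RPKM at day 0, 688, 916 and 821 at day 4, and 957, 826 and 848 at day 7. The day 0 libraries lay below those of both later stages, which overlapped each other. The log2 fold change was 0.72 (SE 0.18, adjusted p = 0.00148), a 1.63-fold rise of the mean, and it missed the threshold when all genes with any reads were tested (adjusted p = 0.0509).

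**Figure D2:**
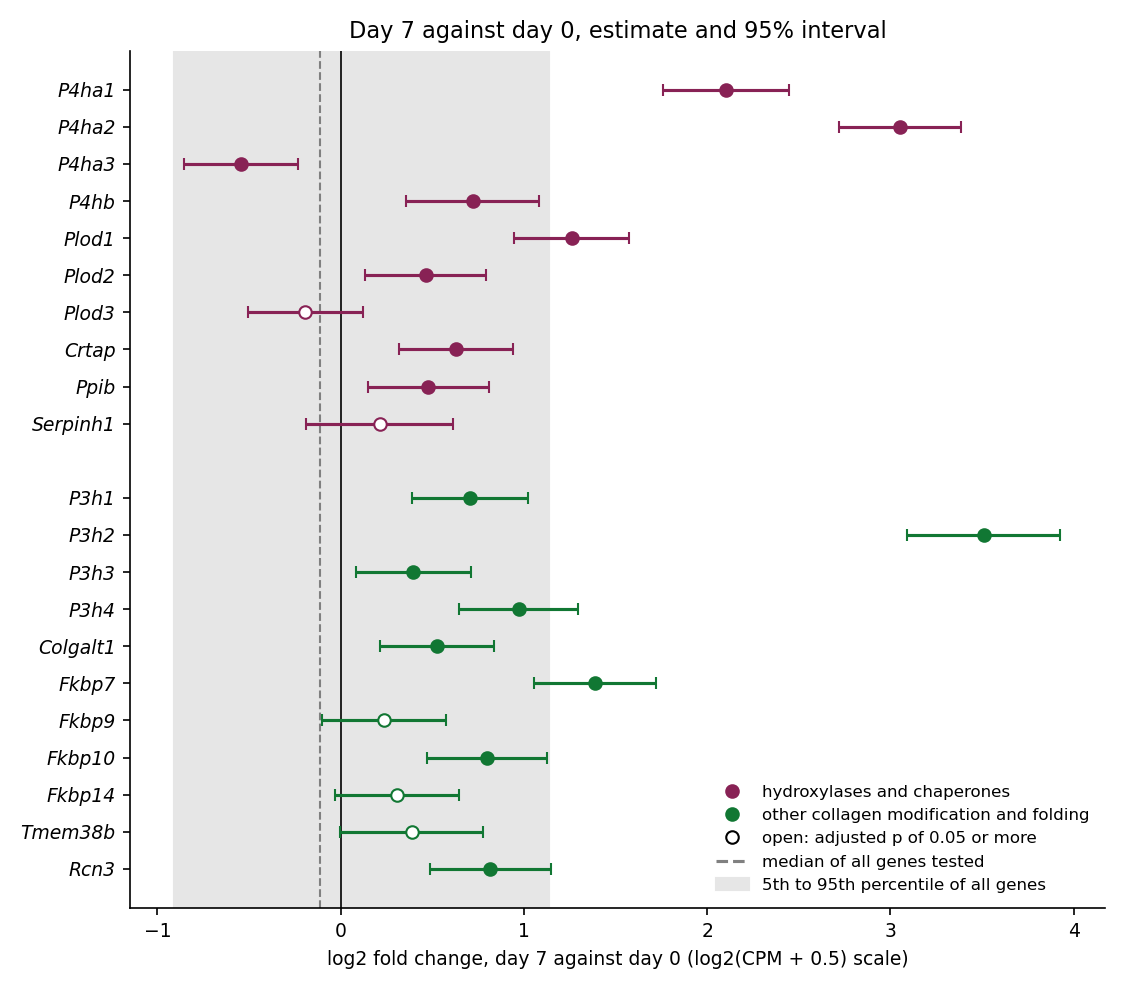
Log2 fold change of day 7 against day 0 (x axis, log2(CPM + 0.5) scale, limma) with 95% intervals for the 10 genes and for 11 other genes of collagen modification and folding. Filled points passed an adjusted p of 0.05, the grey band spans the 5th to 95th percentile of all genes tested and the dashed line their median of −0.11. P4ha2 at 3.05, P4ha1 at 2.10 and Plod1 at 1.26 lie to the right of the band.

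The makeup of the α subunit transcripts shifted between the stages. Of the summed P4ha RPKM at days 0, 4 and 7, P4ha1 held 73.8% ± 2.67, 72.3% ± 0.802 and 78.0% ± 0.990 (SD, n = 3). P4ha2 held 9.39% ± 0.709, 21.8% ± 2.61 and 19.2% ± 1.15. P4ha3 held 16.8% ± 3.08, 5.88% ± 1.82 and 2.80% ± 0.318, so that P4ha2 and P4ha3 changed places as the second subunit after P4ha1. For each of these shares the 3 libraries of day 7 did not overlap those of day 0 (exact two-sided permutation p = 0.1, the smallest that 3 libraries against 3 can give, and 0.127 after adjustment over 19 ratios). The change in the P4ha1 share, 4.14 percentage points, was 2.61 without replicate 3 of day 0, and turned to −2.05 with CPM in place of RPKM, which is not per length (exact permutation p = 0.3). Day 0 CPM of P4ha2 and P4ha3 was 111 and 75.3 in replicate 1, 90.0 and 78.3 in replicate 2, and 69.7 and 75.8 in replicate 3. The change of places between P4ha2 and P4ha3 thus depends on the division by length.

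P4hb exceeded the α subunits together at every stage, by a shrinking margin. The ratio of P4hb to summed P4ha RPKM was 3.50 ± 0.0515 at day 0, fell to 1.76 ± 0.0379 at day 4 and reached 1.42 ± 0.0299 at day 7. The libraries of day 0 and day 7 did not overlap, with a log2 difference of −1.31 (exact permutation p = 0.1, adjusted 0.127). A ratio of 2 genes within a library does not depend on how the libraries are scaled.

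The lysyl hydroxylases followed 3 different courses. Plod1 (ENSMUSG00000019055, chr4:147909753-147936767, minus strand), the enzyme for the helical part of the chain, rose. It had 20.6, 21.7 and 16.7 RPKM at day 0, 35.6, 48.0 and 44.2 at day 4, and 53.9, 45.0 and 42.8 at day 7. Day 0 lay apart from both later stages, which overlapped. The mean rose 2.40-fold, from 19.7 ± 2.63 to 47.2 ± 5.91 RPKM, and the log2 fold change was 1.26 (SE 0.16, adjusted p = 5.32e-09).

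Plod2 (ENSMUSG00000032374, chr9:92542223-92608428, plus strand), the telopeptide lysyl hydroxylase, was highest at day 4. Its RPKM was 31.2, 26.4 and 21.1 at day 0, 46.0, 58.3 and 59.2 at day 4, and 43.9, 34.4 and 30.3 at day 7. The day 4 libraries lay above all others, the closest pair being 46.0 and 43.9 RPKM, and day 7 overlapped day 0. The mean at day 7 was 0.664 times that at day 4 and 1.38 times that at day 0. The log2 fold change of day 7 against day 0 was 0.46 (SE 0.16, adjusted p = 0.0254). That call ended without replicate 3 of day 0 (log2 fold change 0.32, adjusted p = 0.0801), without replicate 1 of day 7 (0.32, adjusted p = 0.250), in the RPKM table (adjusted p = 0.0557) and when all genes with any reads were tested (adjusted p = 0.0531).

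Plod3 (ENSMUSG00000004846, chr5:136987019-136996648, plus strand), the lysyl hydroxylase that is also a glycosyltransferase, did not pass the test. It had 66.9, 56.6 and 52.3 RPKM at day 0, 64.4, 71.2 and 70.2 at day 4, and 58.8, 46.7 and 48.4 at day 7. All day 7 libraries lay below all day 4 libraries, at 0.748 times the mean, while day 0 overlapped both. The log2 fold change of day 7 against day 0 was −0.19 with a 95% interval from −0.51 to 0.12 (adjusted p = 0.377), and it ranged from −0.29 (without replicate 1 of day 7) to −0.09 (without replicate 1 of day 0) when a library was left out. None of the 18 alternative settings gave a call.

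Plod3 was the most abundant of the lysyl hydroxylase transcripts at day 0, with 56.2% ± 2.00 of the summed Plod RPKM, and held 41.5% ± 2.20 at day 4 and 38.1% ± 1.52 at day 7. The share of Plod1 was 18.9% ± 1.71, 25.6% ± 1.33 and 35.1% ± 0.648. For both the day 0 and day 7 libraries did not overlap (exact permutation p = 0.1, adjusted 0.127). The share of Plod2 was 25.0% ± 1.43, 32.8% ± 1.30 and 26.7% ± 1.62, and day 7 was not told apart from day 0 (exact permutation p = 0.3), with a change of 1.78 percentage points that was −0.0595 with CPM. Levels of Plod2 and Plod3 are uncertain to a degree, since exons of an antisense transcript (Gm38391) and of Znhit1 on the opposite strand overlap theirs, by 346 bases for Plod2, and by 538 bases for Plod3 together with Mir702. Whether reads were counted by strand is not given in the sources used here.

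**Figure D3:**
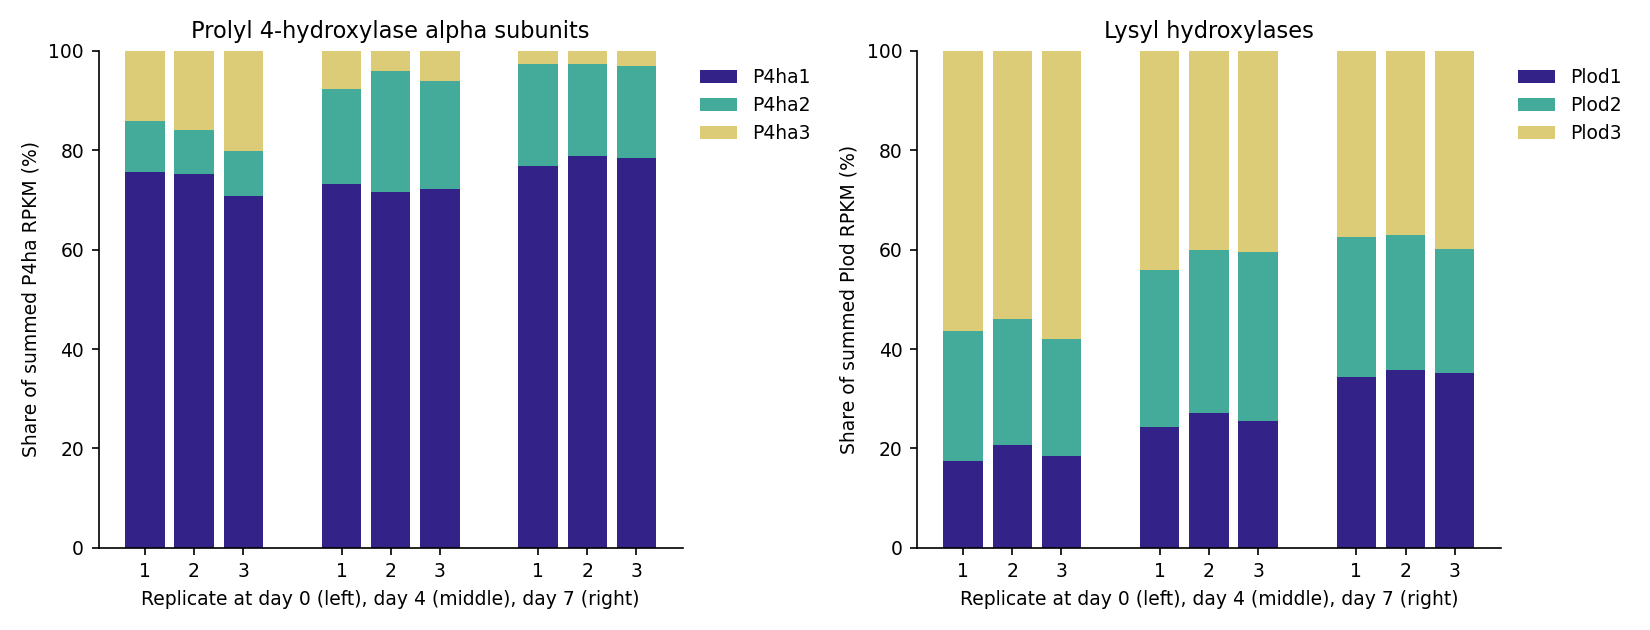
Share of each α subunit in the summed P4ha RPKM (left) and of each lysyl hydroxylase in the summed Plod RPKM (right), in percent (y axis, 0 to 100), with a stacked bar for each library and the stages from left to right on the x axis. P4ha3 shrank from 16.8% at day 0 to 2.80% at day 7 and Plod3 from 56.2% to 38.1%, while Plod1 grew from 18.9% to 35.1%.

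In the 3-hydroxylation complex both members rose moderately. Crtap (ENSMUSG00000032431, chr9:114375134-114390675, minus strand), whose product is the scaffold without catalytic activity of its own, had 98.0, 109 and 92.6 RPKM at day 0, 138, 141 and 145 at day 4, and 179, 137 and 149 at day 7. The day 0 libraries lay below all others. Its log2 fold change was 0.63 (SE 0.15, adjusted p = 0.0012), and Crtap passed under all 18 alternatives. P3h1, the enzyme of the complex and not one of the 10 genes, rose by 0.71 (SE 0.16, adjusted p = 0.000354). The ratio of Crtap to P3h1 RPKM was 1.46, 1.54 and 1.38 at days 0, 4 and 7, and day 7 was not told apart from day 0 (log2 difference −0.08, exact permutation p = 0.4).

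Ppib (ENSMUSG00000032383, chr9:66060222-66066623, plus strand), the isomerase of the complex, had 190, 173 and 117 RPKM at day 0, 187, 216 and 199 at day 4, and 234, 196 and 228 at day 7. All day 7 libraries lay above all day 0 libraries, the closest pair being 196 and 190 RPKM. By limma the log2 fold change was 0.48 (SE 0.16, adjusted p = 0.0209). Without replicate 3 of day 0, its lowest library, the value was 0.27 (adjusted p = 0.0462). The call ended without replicate 1 of day 7 (0.43, adjusted p = 0.12), without replicate 3 of day 7 (0.45, adjusted p = 0.0985) and in the RPKM table (adjusted p = 0.0619). Snx22, on the opposite strand, shares 825 exonic bases with Ppib in GENCODE M21. There Ppib has 3305 exonic bases, while its deposited CPM and RPKM imply a model of 960 bases, so whether the shared bases were counted for Ppib was not tested. For Plod2 and Plod3 the 2 lengths are the same (5392 and 4519 bases). The ratio of Crtap to Ppib was not told apart between day 7 and day 0 (log2 difference 0.15, exact permutation p = 0.5).

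Serpinh1 (ENSMUSG00000070436, chr7:99345376-99353239, minus strand), the collagen-specific chaperone, was by far the most abundant of the 10 transcripts. It had 2245, 2254 and 1789 RPKM at day 0, 2185, 2393 and 2391 at day 4, and 2576, 2190 and 2505 at day 7. The 3 stages overlapped. The log2 fold change was 0.21 (SE 0.20, 95% interval −0.19 to 0.62, adjusted p = 0.447), and from 0.10 (without replicate 3 of day 0) to 0.29 (without replicate 2 of day 7) when a library was left out. It passed in the 3 tests on recovered reads, edgeR (0.32, adjusted p = 0.0203), DESeq2 (0.32, adjusted p = 3.95e-05) and voomWithQualityWeights (0.32, adjusted p = 0.00174).

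The order of the 10 levels changed between the stages. Serpinh1 and P4hb were first and second at each stage, with no overlap between them or with the next gene. At day 0 Ppib, P4ha1 and Crtap followed with overlapping neighbours, then Plod3, then Plod2 and P4ha3, which overlapped, and at the end Plod1 and P4ha2, which overlapped. At day 7 P4ha1 came next and then Ppib, without overlap. After them Crtap and P4ha2 overlapped, followed by Plod3, Plod1 and Plod2 with overlapping neighbours. P4ha3 was then the lowest. P4ha2 thus moved from the last place at day 0 to rank 6 at day 4 and day 7.

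Between day 0 and day 4 the means of all 10 genes were higher at day 4, against 43.3% of 12710 genes. Without replicate 1 of day 4 this held for 9, the exception being P4ha3. All day 4 libraries exceeded all day 0 libraries for 6 genes (P4ha1, P4ha2, P4hb, Plod1, Plod2 and Crtap), against 21.1% of all genes, and the reverse held for none, against 22.2% (43.3% in either direction). The 6 became 9 without replicate 1 of day 4 and after rescaling by the median of ratios, settings for which the share of all genes was not counted. Between day 4 and day 7 the means of 7 genes were higher at day 7 (40.5% of all genes). All day 7 libraries exceeded all day 4 libraries only for P4ha1 (13.8% of all genes), and lay below them for P4ha3, Plod2 and Plod3 (24.6%, or 38.5% in either direction). The first of these numbers was 3 without replicate 2 of day 4, 4 without replicate 2 of day 7, and 2 after rescaling. For these settings too the share of all genes was not counted. Between day 0 and day 7, 6 genes did not overlap upward (P4ha1, P4ha2, P4hb, Plod1, Crtap and Ppib; 16.9% of all genes) and P4ha3 did not overlap downward (25.4%), against 42.3% of all genes in either direction.

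The main cargo, type I collagen, rose as well. Col1a1 went up by 1.35 (SE 0.24, adjusted p = 1.78e-05) and Col1a2 by 1.29 (SE 0.25, adjusted p = 7.11e-05) on the log2 scale. Set against the mean RPKM of these 2 chains within each library, P4ha1 rose by 0.79 and P4ha2 by 1.74 log2 units from day 0 to day 7, and their day 7 libraries lay above those of day 0. Plod1 kept its ratio to collagen within the spread (log2 difference −0.05, exact permutation p = 0.9). The other 7 genes lost ground: P4ha3 by −1.86, Plod3 by −1.51, Serpinh1 by −1.10, Plod2 by −0.85, Ppib by −0.84, Crtap by −0.69 and P4hb by −0.60. The value of P4hb was −0.40 without replicate 1 of day 0, whose ratio of 0.371 lay above the other 2 of that stage (0.258 and 0.232). For all 9 genes other than Plod1 the libraries of day 0 and day 7 did not overlap (exact permutation p = 0.1 for each, adjusted 0.127). The ratio to collagen was not computed for genes in general, so the share of them that lost ground was not counted. Both collagen chains rose, while the median change over the 12712 genes tested was −0.11. A gene at a steady level would thus lose ground too. Plod1, which kept its ratio, was number 538 when ranked from the largest rise. Serpinh1 RPKM was between 0.974 and 1.34 times the collagen mean at day 0, between 0.539 and 0.555 times at day 4, and between 0.479 and 0.547 times at day 7.

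**Figure D4:**
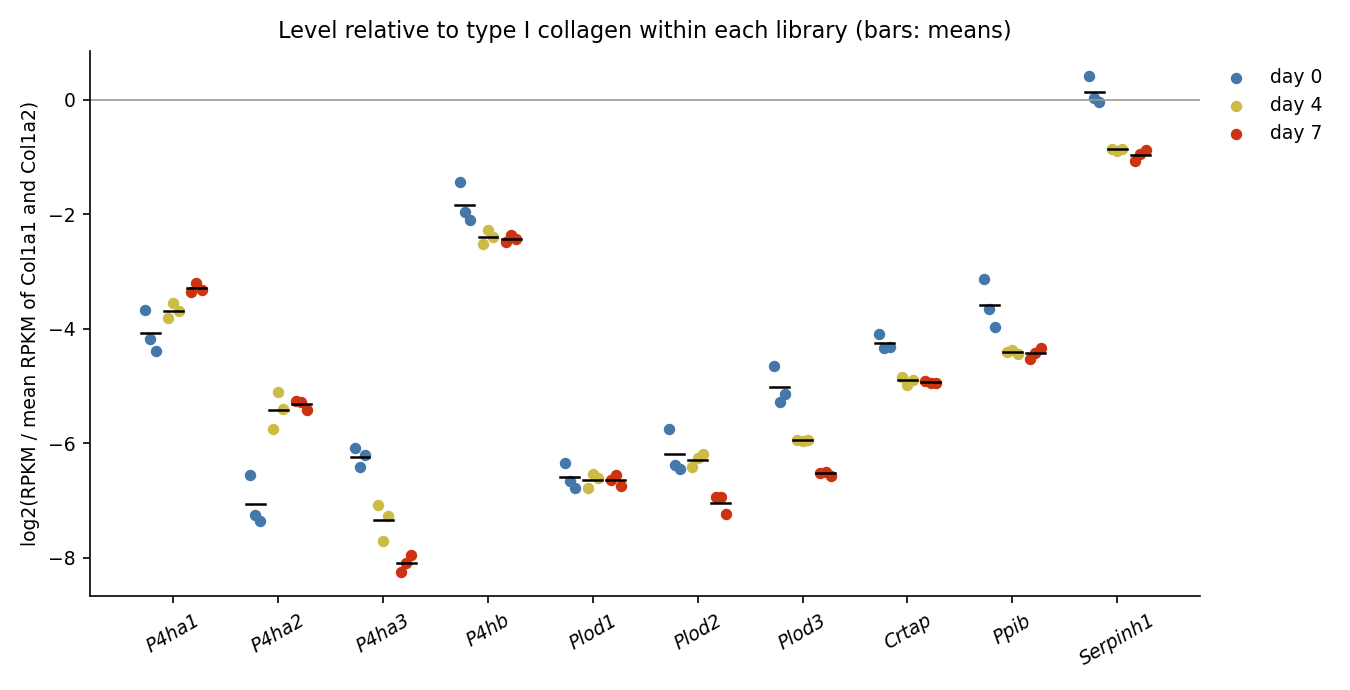
Log2 ratio of each gene's RPKM to the mean RPKM of Col1a1 and Col1a2 in the same library (y axis) for the 10 genes (x axis), with points for 3 libraries per stage coloured by day and bars for their means. P4ha1 and P4ha2 moved up from day 0 to day 7 by 0.79 and 1.74, Plod1 stayed within its spread, and the other 7 moved down.

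The remaining genes of collagen modification and folding mostly rose too: 8 of 11 tested passed upward and none downward, with a median log2 fold change of 0.71. Of all genes tested, 12.6% passed upward and 18.6% downward, and the counts of the lists below stand against the same shares. Without replicate 3 of day 0, a setting used for several lists, 4696 of all genes fell, against 2369 with every library. P3h2, a prolyl 3-hydroxylase with a preference for basement membrane collagen, had the largest rise of that list, 3.51 (SE 0.21, adjusted p = 2.25e-19), from 0.676 ± 0.135 to 9.29 ± 2.98 RPKM. Fkbp7 rose by 1.39, P3h4 (also known as Sc65, a partner in lysyl hydroxylation) by 0.97, Rcn3 by 0.82, and Fkbp10, which codes for the proline isomerase FKBP65, by 0.80. P3h1, the galactosyltransferase gene Colgalt1 (0.53) and P3h3 (0.40, adjusted p = 0.0461) also passed. Tmem38b (0.39), Fkbp14 (0.31) and Fkbp9 (0.24) did not, and Colgalt2 was too low to be tested.

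**Figure D5:**
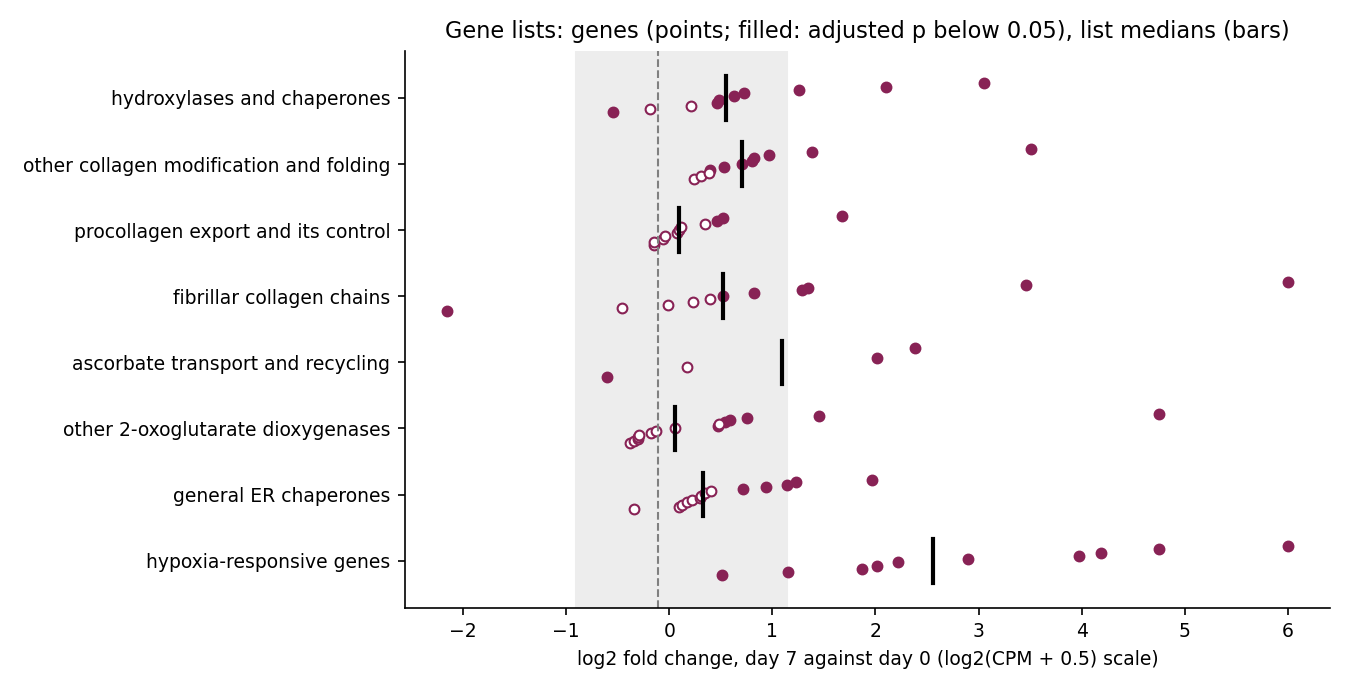
Log2 fold change of day 7 against day 0 (x axis, log2(CPM + 0.5) scale, limma) for the tested genes of each list (rows), with filled points for an adjusted p below 0.05, black bars for list medians, a grey band for the 5th to 95th percentile and a dashed line for the median of all genes tested. The 10 hydroxylase and chaperone genes had a median of 0.55, the other collagen modification genes 0.71, the export genes 0.10 and the hypoxia-responsive genes 2.56.

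Another list held genes of procollagen export from the ER and of its control. Of 11 tested, 3 rose and none fell, with a median of 0.10. Creb3l1 (OASIS), a membrane-bound transcription factor that acts on collagen genes, rose the most, by 1.67 (SE 0.17, adjusted p = 3.91e-11). The number that rose was 1 without replicate 1 or replicate 3 of day 7, and from 5 to 7 with median-of-ratios scaling or the 3 tests on reads, and 2 fell without replicate 3 of day 0. Of 14 general ER chaperones and oxidases, 5 rose, against 12.6% of all genes tested, and none fell, with a median of 0.33. With median-of-ratios scaling or the tests on reads, 10 or 11 rose. For both lists these settings also called more of all genes higher. Ero1a, the oxidase that recharges protein disulfide isomerases, rose the most, by 1.97 (SE 0.17, adjusted p = 8.10e-14). Without replicate 3 of day 0, 1 of these chaperones fell.

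Of the 11 fibrillar collagen chains, 6 rose and 1 fell, with a median of 0.52. The number that rose was 2 when all genes with any reads were tested, and 2 fell without replicate 3 of day 0 and in the tests on reads. Col24a1, a minor fibrillar collagen of bone, had the largest rise at 6.00 (SE 0.19, adjusted p = 8.50e-30), from 0.350 to 25.3 RPKM. Col2a1, the collagen of cartilage, fell by 2.16 on the log2 scale (SE 0.26, adjusted p = 2.51e-09), from 239 ± 157 to 53.5 ± 34.3 RPKM.

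Genes for the cofactor and for related enzymes were divided. Of 7 genes of ascorbate transport and recycling, 4 were tested, 2 rose and 1 fell. Slc2a3 and Slc2a1, glucose transporters that also carry the oxidized form of the vitamin, rose by 2.38 (SE 0.18, adjusted p = 3.87e-15) and 2.02 (SE 0.16, adjusted p = 1.72e-14). Slc23a2, the sodium-coupled ascorbate transporter, fell by 0.60 on the log2 scale (SE 0.16, adjusted p = 0.00209), from 9.90 ± 1.09 to 6.47 ± 0.129 RPKM. Gulo, the last enzyme of ascorbate synthesis in mice, had at most 3 reads in any library. Of 15 other 2-oxoglutarate dioxygenases tested, 6 rose and none fell, with a median of 0.06, and Egln3, a prolyl hydroxylase that acts on the hypoxia-inducible factor, had the largest rise at 4.75 (SE 0.20, adjusted p = 4.28e-25). Without replicate 1 of day 7 only 3 of them rose, and without replicate 3 of day 0, 6 fell. In the latter setting 4696 of all genes fell, against 2369 with every library, so these falls are not particular to the dioxygenases.

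All 10 genes of the hypoxia-responsive list rose (9 without replicate 1 of day 7), with a median of 2.56. Ndufa4l2, a mitochondrial protein gene, led them at 6.00 (SE 0.17, adjusted p = 1.99e-32). The 10 hydroxylase and chaperone genes form a list of their own, so their absence from this list is no result. Their own response to hypoxia was not tested. Together the 7 lists held 79 different genes, of which 74 were tested, 38 rose and 2 fell, with a median of 0.47.

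The labelled cell type was checked against its markers. Of 10 osteoblast markers 9 rose and Runx2 did not pass by limma (0.23, adjusted p = 0.268). Runx2 was at most 8.32 RPKM at day 0, at least 8.36 at day 4 and at least 8.78 at day 7. Its libraries of both later stages thus lay above those of day 0, against 21.1% of all genes for day 4 and 16.9% for day 7. The summed level of the 10 markers was 4498 to 5272 RPKM at day 0, 14183 to 16952 at day 4 and 14776 to 18628 at day 7. All 6 macrophage markers rose, with sums of 42.5 to 73.0 RPKM at day 0 and 78.6 to 103 at day 7. Lyz2 made up most of these sums, with means of 47.7 and 79.4 RPKM, while Csf1r went from 0.959 to 1.92 and Ptprc from 0.0366 to 0.129. Of 6 osteoclast markers 3 were tested, of which 2 rose and Mmp9 fell, with sums of 102 to 134 at day 0 and 233 to 243 at day 7. Most of the sum was Ctsk, with means of 120 and 232 RPKM, while Acp5 went from 0.745 to 6.59. Calcr, Oscar and Dcstamp, which were not tested, had at most 4, 7 and 1 reads in any library. Of 5 chondrocyte markers 4 were tested, 3 fell and Acan rose, and their sum was 158 to 455 at day 0 and 43.9 to 124 at day 7. Col2a1 made up most of that sum, with means of 239 and 53.5 RPKM. The sums were at most 0.459 RPKM for endothelial, 9.35 for skeletal muscle and 5.13 for adipocyte markers, with Emcn, Myod1, Myog, Ckm, Adipoq, Plin1 and Cidec at or below 3 reads in every library. The part of these other cell types in the members' values was not tested.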

How the data were processed

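RNA-seq values of 9 libraries (3 each at day 0, day 4 and day 7) were analysed. Ribosomal RNA was removed with Ribo-Zero Gold. Per the labels and the methods, the authors aligned reads to the Ensembl release of GRCm38 with STAR 2.0.4b and counted uniquely aligned reads per gene with Subread featureCounts (1.45 in the records). The authors deposited CPM, scaled to each library's reads on genes, and RPKM, which also divides by gene model length. Day 0 and day 7 share a table and day 4 has its own. All columns were matched to a sample. The share of CPM values that came out as whole reads was 100% (within 0.01 of a read up to 100 reads, and in proportion above), which gave 7741204 to 14013219 reads per library at day 0, 32820610 to 37306090 at day 4 and 10675858 to 15622755 at day 7. Repeated lines of a gene (276 and 273) were identical and used once. Replicates had Spearman correlations from 0.987 to 0.996 and differed by more than counting noise. The study calls them biological replicates without saying whether they came from separate pups, so p-values measure the spread between these libraries.

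Day 7 was compared with day 0 by limma 3.58.1 (R 4.3.3, trended variances) on log2(CPM + 0.5) for 12712 genes whose mean CPM was 1 or more, a scale that understates changes of low genes. The filter left out 11075 genes with reads, and all 10 members, with 504 to 217563 reads per library, passed it. The variance prior had 42.9 degrees of freedom against 4 residual ones. Shares and ratios of RPKM were compared by exact two-sided permutation over libraries (smallest p 0.1), with adjustment over 19 ratios. The script was tested on simulated data. The alternatives were pseudocounts of 0.1 and 1, other filters, median-of-ratios scaling, the RPKM table, robust variances, a replicate block, edgeR 4.0.16, DESeq2 1.42.0 and voomWithQualityWeights on recovered reads, and leaving out each library. The members and gene lists were chosen with earlier results of these data known. Besides all 10 members, the text names the genes of the collagen modification list, the gene of each other list that rose most and the one that fell most among those past the threshold, markers, and the 3 genes closest to each member. Slc2a1, Col1a1, Col1a2, Gulo, Gm42418 and Plekhh2 were named after their values were seen or for their role. Promoters are from RefSeq (GRCm38.p6) and gene positions from GENCODE M21.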

Additional observations from a re-analysis of the deposited data

How the results depend on the processing

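Over the 10 genes and 18 alternatives, 168 values kept their direction and their side of the threshold, 9 lost the call and 3 gained it, and none changed sign. The number of the 10 genes that rose ranged from 5 to 8, and the number that fell was 0 without replicate 2 of day 7 and 1 otherwise. Among all genes, 1602 rose and 2369 fell. The number that rose was 2843 with median-of-ratios scaling, 2818 with edgeR, 2581 with DESeq2 and 3148 with voomWithQualityWeights, and 1174 to 1603 when a library was left out. The number that fell was 1527 to 4696 when a library was left out (1527 without replicate 2 and 4696 without replicate 3 of day 0, 1548 without replicate 2 of day 7). Of the called genes, 40.3% were higher as deposited and 52.1% with median-of-ratios scaling. In the other lists together, the 2 that fell became 4 with median-of-ratios scaling, 5 with edgeR, 6 with DESeq2, 7 with voomWithQualityWeights, 5 with totals without Gm42418 and Plekhh2 (an alternative chosen after seeing the data), and 2 to 12 when a library was left out (12 without replicate 3 of day 0). Of the 10 genes, those with every day 7 library above every day 4 library numbered 2 with median-of-ratios scaling. They numbered 1 to 4 when a library was left out (3 without replicate 2 of day 4, 4 without replicate 2 of day 7). The share of all genes in these settings was not counted. With CPM, which is not per length, the change in the share of P4ha1 was −2.05 percentage points in place of 4.14 and that of Plod2 −0.0595 in place of 1.78. The log2 difference of Plod1 over type I collagen ranged from −0.146 to 0.0724 when a library was left out, with 0.0724 without replicate 1 of day 0. Apart from the unit in the CPM shares, the cause was not tested. Same-numbered replicates did not deviate together (correlations of deviations −0.0172, −0.181 and −0.444 for replicates 1, 2 and 3), so they were not treated as pairs, and with the replicate block 1463 genes rose and 1950 fell, with the same 7 and 1 of the 10 genes called. With 3 libraries a stage, permutation tests could not pass 0.05, and the unstated strand setting limits the levels of Plod2 and Plod3 and may limit that of Ppib. The 10 genes had at least 504 reads in every library.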

Other observations

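For each of the 10 genes, the 3 genes with the most similar pattern were found by Pearson correlation of log2(RPKM + 0.1) over the 9 libraries, among 11528 genes with a mean RPKM of at least 1. The correlations describe these libraries, which fall into 3 stages and share their depth, so any gene that separates the stages in the same way scores high. Closest to P4ha1 were Hk2, which encodes hexokinase 2 (r = 0.996), Mef2c and Lzts1, and closest to P4ha2 were Abhd18 (r = 0.999), the lactate exporter gene Slc16a3 and Cavin4. Plod1 was closest to Plekha2 (r = 0.995), Abhd18 and Vegfa. P4ha3 was closest to Cacna1g (r = 0.983), Arc and Sorbs3. P4hb was closest to Galk1 (r = 0.994), Alkbh5 and Cnppd1, and Plod2 to Ppme1 (r = 0.989), Soat1 and Dlc1. Plod3 had the lowest best match, Map10 (r = 0.963), followed by Ube2o and Gm23301. Crtap was closest to Hsf4 (r = 0.990), the collagen galactosyltransferase gene Colgalt1 and Hapln3, Ppib to Bet1 (r = 0.994), Mrpl45 and Uqcrfs1, and Serpinh1 to Sec61a1 (r = 0.986), which encodes a channel subunit for entry into the ER, Whamm and Smim14.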
